A study of Mus musculus with 6 samples.

Results

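The genes that encode the proteins of the cytosolic ribosome were examined in 6 single olfactory sensory neurons. The members were chosen by gene symbol, as Rps or Rpl followed by a number with an optional letter, Rplp with a digit, or Rpsa, and 89 of the 55341 genes in the count table matched. Of these, 36 carry small subunit names and 53 large subunit names. The annotation lists 83 of them as protein coding and 6 as pseudogenes, namely Rpl32l, Rpl6l, Rps12l1, Rps3a2, Rps3a3 and Rps4l. The rule misses Fau, which encodes a ribosomal protein under another name. All 6 neurons were wild type, came from the olfactory epithelium of C57BL/6 mice aged 6 weeks and were frozen after physiological recording. They carry the labels OSN1 to OSN6 and are called cells 1 to 6 here. The labels give the cells no difference in treatment or genotype and name no animal, so they form 1 group with no control, and the comparison is of each cell with the others. Each cell is a single library, so no test between cells was possible, and every interval below covers counting error only.

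A ribosome has a small subunit, which reads the mRNA codon by codon, and a large subunit, which joins the amino acids. Their proteins are needed in near-equal numbers, and many of their mRNAs start with a pyrimidine run that lets growth signalling through mTOR set their translation. Ribosomal protein genes have also left many processed pseudogenes, which are intronless copies of their mRNAs inserted elsewhere in the genome. Olfactory sensory neurons are replaced throughout life from basal stem cells, and mature ones carry cilia and a long axon that their protein synthesis has to supply.

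Library totals ran from 8613 counts in cell 1 to 122546 in cell 3, with 34478, 60902, 22525 and 11725 in cells 2, 4, 5 and 6. A single count was therefore worth 116 CPM (counts per 1000000 counts of the cell) in cell 1, 85.3 in cell 6 and 8.16 in cell 3. All 6 genes of a mature olfactory neuron marker list had counts in cells 1 to 5, and 5 of them had counts in cell 6. Markers of other cells were also counted. The 6 gland genes summed to 6850, 19781, 955, 378, 5150 and 0 CPM in cells 1 to 6, with 4 of them found in each of cells 1 to 5. The 5 red blood cell genes summed to 1742, 4264, 4080, 12610, 2575 and 171 CPM, with 4 found in each of cells 1 to 5 and 2 in cell 6. Sustentacular cell genes, 4 on the list, had counts in cells 2, 3 and 4 alone, at 841, 73.4 and 312 CPM. Mitochondrial genes took 14.4%, 11.7%, 6.47%, 4.40%, 7.62% and 12.3% of the counts. The part of these other signals in the results below was not tested.

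The sequences that bear most on the counts are the copies, because reads from stretches that a member and a copy share cannot be told apart. A copy was defined, after the data were seen, as any other gene that shares at least 20% and at least 100 of its 32-base windows with a transcript of a member. This gave 599 copies of 75 of the 83 coding members, and 588 of them are typed as pseudogenes. How alike they are varies along the copy and between copies. For some that are alike, the 60 bases that end with the stop codon are given below, with bases that differ from the member in capitals. All are from GRCm38, 5′ to 3′ on the coding strand. Rpl21, a large subunit protein, is shown because it has the most copies, 58. The copy Gm10240 on chromosome 15 differs from it at 1 base of this stretch and Gm9104 on chromosome 17 at 0. Rpl15, another large subunit protein, is shown because its copies bear on a result in cell 6, and its copies Gm49594 on chromosome 16 and Rpl15-ps3 on chromosome 9 match it at every base here. Rps3a1 is shown with Rps3a3, which the symbol rule takes as a member although it is a processed pseudogene on chromosome 13, and which differs at 2 bases. The other such member, Rps3a2, shares 84.4% of its windows with Rps3a1 and is not printed, because its bases were not lined up with this stretch.
Rpl21: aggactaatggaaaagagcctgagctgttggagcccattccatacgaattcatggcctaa
Gm10240: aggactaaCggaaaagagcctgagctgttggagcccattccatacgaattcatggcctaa
Rpl15 with Gm49594 and Rpl15-ps3: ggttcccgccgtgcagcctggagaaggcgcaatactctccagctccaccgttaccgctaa
Rps3a1: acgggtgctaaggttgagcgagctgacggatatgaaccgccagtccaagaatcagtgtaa
Rps3a3: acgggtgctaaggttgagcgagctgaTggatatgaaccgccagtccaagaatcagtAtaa

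The pyrimidine run at the transcript start is another sequence feature, found in part of the members. RefSeq promoters (GRCm38.p6) were found for 63 of the 83 coding members, each with 250 bases before and 50 after the annotated start. A run of C followed by at least 5 bases that are C or T, starting within 10 bases of the annotated start, stood in 34 of the 63 (54.0%), against 21.9% of 27025 genes. The letters CCGGAAG, the core of ETS factor sites, were present on either strand in 26 members (41.3%), against 9.93% of genes. TATAAA was present on either strand in 7 (11.1%), against 15.7% of genes. The motifs were searched separately and CCGGAAG read on the other strand can overlap a pyrimidine run. Starts of 4 members that differed between cells, from 15 bases before to 15 from the start on, are given below with the whole run of C and T bases in capitals. All 4 are among the 34 with a run, so they do not show how often members that differed have one. The windows are chr7:3704026-3704055 on the plus strand for Rps9, chr10:128626492-128626521 on the minus strand for Rps26, chr2:39005117-39005146 on the minus strand for Rpl35 and chr14:18270972-18271001 on the minus strand for Rpl15.
Rps9: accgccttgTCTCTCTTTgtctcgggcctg
Rps26: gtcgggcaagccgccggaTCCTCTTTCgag
Rpl35: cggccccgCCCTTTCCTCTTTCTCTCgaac
Rpl15: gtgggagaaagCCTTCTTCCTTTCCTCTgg
The run is 9 bases long in Rps9 and Rps26, 18 in Rpl35 and 17 in Rpl15. It spans the annotated first base in Rps9, Rpl35 and Rpl15, where it begins 6, 7 and 4 bases before it, and begins 3 bases after it in Rps26.

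The members together held 158, 633, 1424, 1005, 315 and 165 counts in cells 1 to 6. That was 1.83% of all counts in cell 1 (exact 95% binomial interval 1.56 to 2.14), 1.84% in cell 2 (1.70 to 1.98), 1.16% in cell 3 (1.10 to 1.22), 1.65% in cell 4 (1.55 to 1.75), 1.40% in cell 5 (1.25 to 1.56) and 1.41% in cell 6 (1.20 to 1.64). Cell 3, the most deeply sequenced, was the lowest, and its interval overlapped only that of cell 6. The highest and lowest shares differed by 1.58 times. That order holds for shares of each cell's total. With edgeR's TMM scaling, which multiplies the totals of cells 1 to 6 by 1.5, 0.773, 0.689, 0.807, 0.987 and 1.57 and so shifts levels by -0.58, 0.37, 0.54, 0.31, 0.02 and -0.65 on the log2 scale, the members' sum was 1.23%, 2.38%, 1.69%, 2.04%, 1.42% and 0.894% of the scaled totals, and cell 6 was the lowest. Pooled over the 6 cells, 3700 of the counts (1.42%, interval 1.37 to 1.46) fell on members.

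Small subunit members took 41.8%, 40.6%, 38.7%, 45.3%, 40.3% and 40.0% of the members' counts in cells 1 to 6, and large subunit members the rest. The pooled small subunit share was 41.1% (interval 39.5 to 42.7), from 1522 small and 2178 large subunit counts, while 40.4% of the 89 members are small subunit genes. Cell 4 stood highest at 45.3% (42.2 to 48.4) and cell 3 lowest at 38.7% (36.2 to 41.3), and these 2 intervals did not overlap. The other 4 cells lay within 1.8 percentage points of each other, and each of their intervals overlapped those of cells 3 and 4. As a share of all counts, the small subunit ranged from 0.450% in cell 3 to 0.766% in cell 1 and the large subunit from 0.712% in cell 3 to 1.09% in cell 2. Both subunits were thus lowest in the same cell. Cell 4 stayed highest and cell 3 did not stay lowest when the 3 most abundant members of each subunit were left out, with 45.4%, 42.3%, 41.9%, 46.7%, 40.2% and 34.2% in cells 1 to 6.

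**Figure D1:**
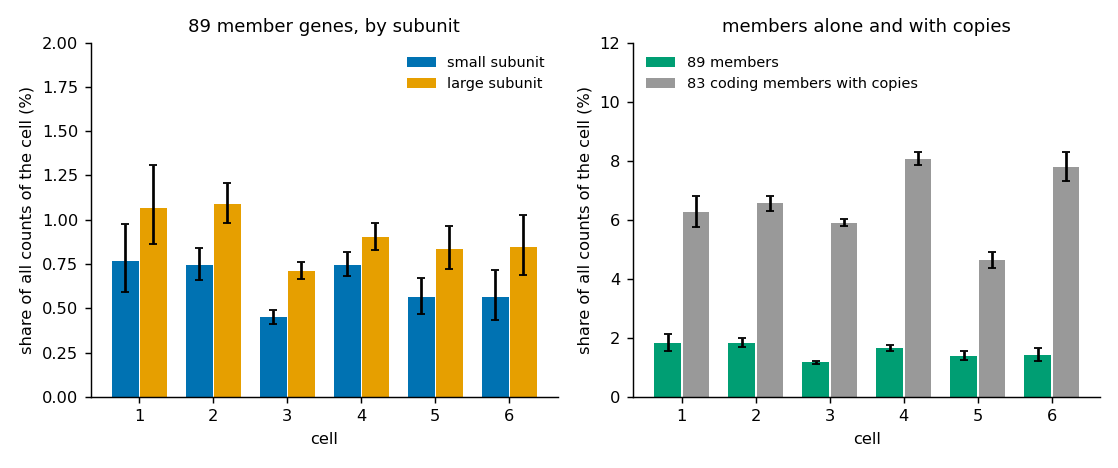
Left, share of all counts of each cell (%) held by small and large subunit members. Right, the share held by the 89 members and by the 83 coding members summed with their copies; bars are single cells and error bars exact 95% binomial intervals. Cell 3 is lowest for the members alone (1.16%), and cell 5 is lowest once copies are added (4.63%).

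Most members were detected. In all, 86 had at least 1 count and 49 had counts in every cell, but only 11 had 3 or more in every cell, and with each cell thinned to 8613 counts a mean of 16.1 members over 20 draws were found in every cell. Cells 1 to 6 held counts for 68, 84, 85, 85, 82 and 59 members, in the order of depth except that cell 6 was below the shallower cell 1. The same held over all genes, with 2855 detected in cell 6 and 3058 in cell 1. The 3 members without a count were Rpl3l, Rpl10l and Rpl39l, paralogs known from muscle for the first and testis for the others, and a count of 0 allows up to 11.5 CPM over the pooled cells. A further 4 members had under 10 counts. Rpl13a had 3 counts, all in cell 4, Rpl36a had 4, and Rpl7l1 and Rps27l had 9 each. Only 25 members, 10 small and 15 large subunit genes, had a mean level of at least 200 CPM, and 3 reached 500 CPM. All comparisons of single members that follow use these 25 unless stated, since below that level a shallow cell holds few counts.

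Members with high counts are described first. Reads come from the 3′ end of each mRNA, so these levels in CPM were not divided by gene length, and small differences between genes should not be read as differences in transcript number. Rpl4, whose protein lines the exit tunnel for the growing peptide, held the most counts of any member, 251. It stood at 1742, 1073, 898, 821, 1199 and 1023 CPM in cells 1 to 6, a ratio of 2.12 between the highest and lowest cell (exact interval 1.11 to 3.84). Rpl4 has 1 copy and 91.6% of the counts of the pair fell on Rpl4 itself, so its value depends little on the copies. Rpl41, a very short protein at the bridge between the subunits, stood at 464, 696, 375, 476, 355 and 256 CPM. Rpl23, at the interface of the large subunit, stood at 464, 464, 302, 246, 133 and 512 CPM. The counting intervals of the highest-to-lowest ratios of Rpl41 (2.72, 0.826 to 14.1) and Rpl23 (3.84, 0.821 to 23.7) both contained 1. In these ratios the 2 cells were picked as the extremes of 6, and the intervals do not allow for that choice.

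To rank the members by how much they differed between cells, a dispersion index was used, the chi-square of the 6 counts against the library totals divided by 5, which is 1 on average when only counting error acts and grows with abundance. The median over the 25 members was 1.80, against 4.23 over all 694 genes whose mean reached 200 CPM. Between 200 and 500 CPM it was 1.62 for 22 members and 3.32 for 511 genes. The counts on the members' own rows were therefore closer to counting error than those of the typical gene of that level, in this count and with these cells. Between 500 and 1000 CPM it was 7.07 for 2 members and 6.62 for 94 genes. Between 1000 and 5000 CPM the 1 member, Rpl4, had 1.80 and 71 genes 14.0. With copies added, the difference between 200 and 500 CPM was lost, as given below. The 6 members with the highest index were Rps9, Rps26, Rps20, Rpl35, Rplp1 and Rpl13. The first 3 are small subunit genes and the others large subunit genes.

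**Figure D2:**
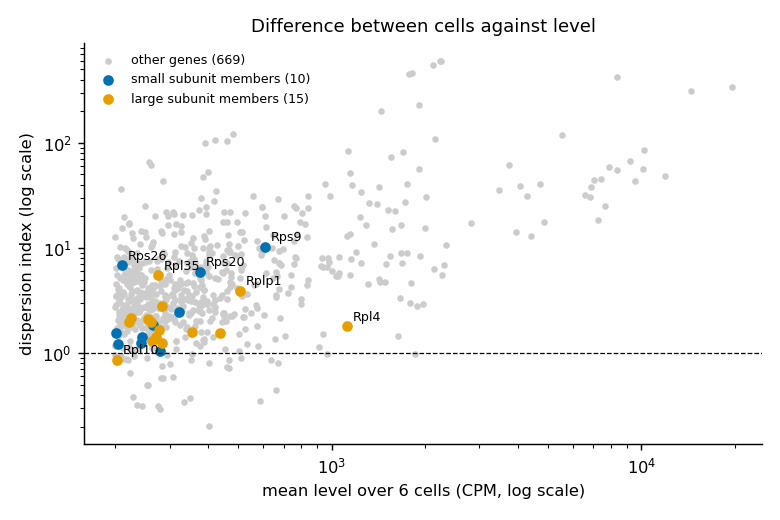
Dispersion index against mean CPM over the 6 cells (both on log scales) for the 694 genes whose mean reached 200 CPM; each point is a gene, and the dashed line at 1 is the value under counting error alone. Most of the 25 members lie in the lower part of the cloud, with Rps9 (10.2) and Rps26 (6.86) the highest.

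Rps9, a small subunit protein near the path of the mRNA into the ribosome, had the highest index (10.2). It held 7, 17, 18, 30, 10 and 15 counts, which is 813, 493, 147, 493, 444 and 1279 CPM in cells 1 to 6. Cell 6 was highest and cell 3 lowest, with a ratio of 8.71 (4.09 to 18.3), while cells 2, 4 and 5 lay close together. Without cell 3 the ratio was 2.88 and with TMM scaling 3.81, so the size of this difference rests on cell 3 and on the scaling.

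Rps26, which lies where the mRNA leaves the small subunit, held 2, 13, 10, 27, 1 and 1 counts, or 232, 377, 81.6, 443, 44.4 and 85.3 CPM. Cells 2 and 4 were high and cells 3, 5 and 6 low. The ratio of cell 4 to cell 5 was 9.99, with an interval of 1.65 to 409 because cell 5 had a single count, and without cell 5 the ratio was 5.43. Rps20, in the head of the small subunit, stood at 464, 464, 89.8, 246, 488 and 512 CPM. Here cell 3 (11 counts) was low and the other cells lay within a range of 246 to 512 CPM, with a ratio of 5.70 between cells 6 and 3 (1.73 to 16.8) and 2.08 without cell 3.

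Rpl35, at the mouth of the exit tunnel, stood at 464, 406, 49.0, 213, 266 and 256 CPM. It had 6 counts in cell 3 and 14 in cell 2, although cell 3 had 122546 counts in all, and the ratio of cell 1 to cell 3 was 9.49 (1.97 to 40.0). Without cell 3 the highest and lowest cells of Rpl35 differed by 2.18 times, and with copies by 4.53 times. Rplp1, an acidic protein of the stalk that recruits elongation factors, stood at 929, 638, 253, 493, 311 and 426 CPM, with a ratio of 3.67 between cells 1 and 3 (1.46 to 8.17). Its partners in the stalk had fewer counts, 38 for Rplp0 and 26 for Rplp2, with indices of 0.784 and 1.92. Rpl13 differed in another way, at 116, 464, 310, 509, 44.4 and 256 CPM. It was high in cells 2, 3 and 4, and cells 1 and 5 held 1 count each. Its ratio of cell 4 to cell 5 was 11.5 (1.91 to 467), and without cell 5 the ratio was 4.38.

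Cell 3 was thus the lowest cell for 4 of these 6 members, Rps9, Rps20, Rpl35 and Rplp1. In the index a given fold difference weighs most in cell 3, the deepest library. This count is therefore partly set by the choice of the 6. Among all 25 members, 7 were called lower in cell 3, as given below, where 22% of genes were. With cell 3 left out, only 3 of the 6, Rps9, Rpl13 and Rps26, stayed among the top 6 members. With expected counts scaled to the members' own total, 5 of the 6 stayed, and with TMM scaling also 5. Under TMM scaling cell 3 was still lowest for Rps9, Rps20 and Rpl35 (213, 130 and 71.1 CPM), while cell 6 was lowest for Rplp1.

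**Figure D3:**
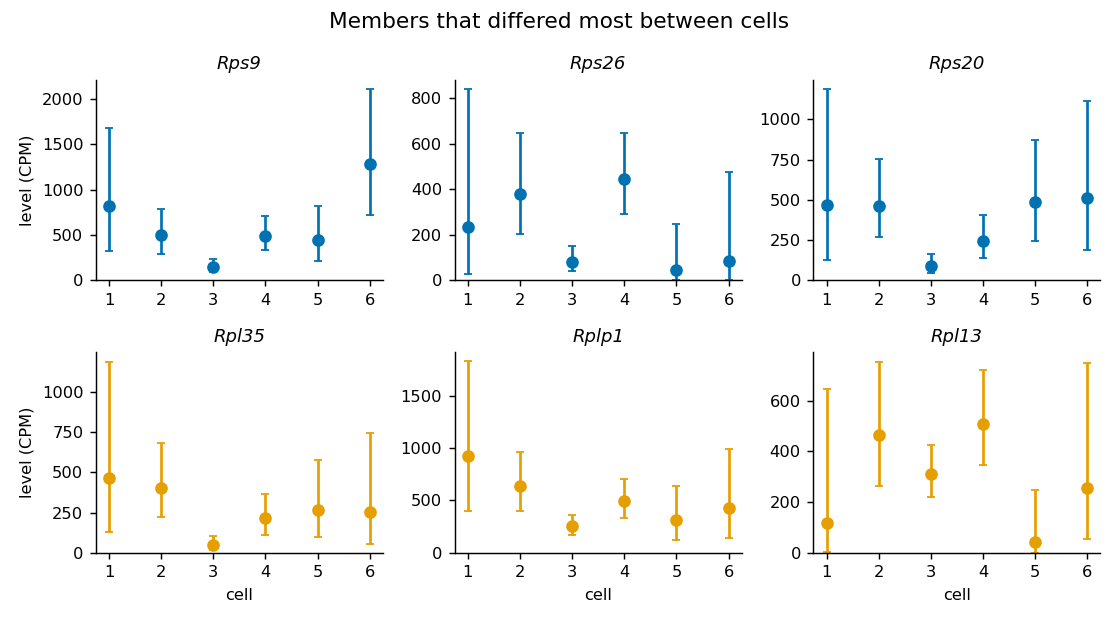
Level in CPM of Rps9, Rps26, Rps20, Rpl35, Rplp1 and Rpl13 in each of cells 1 to 6; points are single cells and bars exact 95% Poisson intervals, each panel with its own vertical axis from 0. Cell 3 is lowest for Rps9 (147), Rps20 (89.8), Rpl35 (49.0) and Rplp1 (253).

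At the other end, the 5 lowest indices of the 25 were those of Rpl10, Rps29, Rps24, Rps27 and Rpl32. Rpl10, which joins the large subunit late in its assembly, had an index of 0.864 and stood at 232, 261, 122, 213, 222 and 171 CPM. Rps29, a small zinc-binding protein, had an index of 1.03 and stood at 116, 261, 220, 378, 355 and 341 CPM. Rps24 and Rps27 (both 1.23) and Rpl32 (1.24) came next. The highest cell of Rpl10 was 2.13 times the lowest (0.823 to 5.20), an interval that contains 1 and does not show that the cells were alike. In Rpl32, cell 1 stood at 581 CPM and the others between 133 and 263 CPM, but cell 1 held only 5 counts.

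Remaining members of the 25 moved in several directions. Rpl9 was highest in cell 1 (581 CPM, 5 counts) and lowest in cell 5 (44.4 CPM, 1 count), a ratio of 13.1 that fell to 3.21 without cell 5. Rpl8 had 0 counts in cell 1 and 488 CPM in cell 5, its highest. Rpl15 and Rpl28 were highest in cell 6, at 426 CPM each.

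A member was called when its level was at least 2-fold above or below the mean of the other 5 cells, after 10 CPM were added to both. In cell 1, 6 of the 25 members were called higher, Rpl21, Rpl32, Rpl7, Rpl9, Rplp1 and Rps3a1, where 16% of the 694 genes were, and 4 lower, where 30% of genes were. In cell 2, 1 was called higher (Rps26; 5.48% of genes) and 1 lower (Rps27; 28.4%). In cell 3, 0 were called higher (8.21% of genes) and 7 lower, Rpl15, Rpl26, Rpl35, Rplp1, Rps20, Rps26 and Rps9, where 22% of genes were. These are shares of single genes past a fold, with no test, and in cell 1 a change of 1 count moves a gene by 116 CPM.

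In cell 4, 2 members were called higher, Rpl13 and Rps26 (11.7% of genes), and 0 lower (25.6%). In cell 5, 1 was called higher, Rpl8 (12.4% of genes), and 8 lower, Rpl13, Rpl21, Rpl23, Rpl32, Rpl7, Rpl9, Rps24 and Rps26, where 21% of genes were. In cell 6, 4 were called higher, Rpl15, Rpl28, Rps24 and Rps9 (24.8% of genes), and 2 lower, Rps26 and Rps3a1 (32.7%). The members' share of lower calls was above that of all genes in cells 3 and 5 and below it in the other cells. Lower calls were 22 in all over the 6 cells and higher calls 14. Among all genes, lower calls outnumbered higher ones in each of the 6 cells. The median difference from the other cells over the 25 members was 0.36, 0.35, -0.57, -0.05, -0.53 and -0.10 on the log2 scale, against -0.11, -0.35, -0.30, -0.31, -0.04 and -0.05 over all genes. With TMM scaling these medians were -0.25, 0.83, -0.07, 0.34, -0.47 and -0.77 for the members and -0.82, 0.04, 0.31, 0.06, -0.08 and -0.83 for all genes, so the sign changed in cells 1 and 4 for the members. The calls became 13 higher and 33 lower, 28.3% higher against 38.9% without it. They were made on the 28 members and 756 genes whose mean then reached 200 CPM. Lower calls in cells 1 to 6 were 9, 0, 5, 0, 8 and 11 members, against 47.1%, 17.99%, 9.66%, 16.3%, 20.1% and 52.4% of genes. Higher calls were 0, 9, 0, 3, 1 and 0 members, against 2.65%, 13.1%, 23.9%, 17.3%, 11.6% and 7.54% of genes. The members' share of lower calls was again above that of all genes in cells 3 and 5 alone. Under both scalings the members' median was above that of all genes in cells 1, 2 and 4 and below it in cells 3 and 5, while in cell 6 the order changed. Ranks of the 25 members in 1 cell and another had Spearman's rho of 0.07 to 0.52 over the 15 pairs of cells, as a description across genes.

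Several members below 200 CPM, named after their values were seen, also had a high index. Rpl27 (7.17) had 0, 1, 6, 3, 2 and 6 counts and so stood at 512 CPM in cell 6. Rps14 (6.02) was highest in cell 2, with 16 counts there and 7 in cell 3. Rpl38, which is known for its part in the translation of Hox mRNAs, had an index of 4.13 and 17 counts in cell 4 against 8 in the deeper cell 3.

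Among the paralogs, Rpl22 and Rpl22l1 differed by cell. Rpl22 is an RNA-binding large subunit protein and Rpl22l1 its close relative. Rpl22l1 held 0, 2, 4, 13, 2 and 0 counts in cells 1 to 6 and Rpl22 held 1, 4, 11, 3, 3 and 0. Rpl22l1 thus took 81.3% of the pair in cell 4 (13 of 16, exact interval 54.4 to 96.0) and 29.6% in the other cells pooled (8 of 27, 13.8 to 50.2), and these intervals did not overlap. This pair was singled out after its values were seen. Cell 4 also had the highest sum over 6 immature neuron genes, 2923 CPM, where the other cells had 581 to 2220, and 5 of the 6 were found in it, as in cells 2 and 5. Most of that sum was Stmn2 (1708 CPM), while Gap43 and Stmn1 were highest in cell 6 (682 and 853 CPM). Rpl22l1 and Rpl22 were both at 0 in cell 6, but a count of 0 there allows up to 256 CPM, above the 213 CPM of Rpl22l1 in cell 4. The red blood cell genes were also highest in cell 4, at 12610 CPM. The part of these signals in the result was not tested.

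The other paralogs did not stand apart in a cell. Rps27l took 9 of 67 counts (13.4%) of its pair with Rps27, and Rpl7l1 took 9 of 74 (12.2%) with Rpl7. Rps4l, a transcribed processed pseudogene, took 20 of 68 counts (29.4%) with Rps4x, and both were at 0 in cell 6. For Rpl3l, Rpl10l and Rpl39l the main genes held 38, 46 and 13 counts. Members with special roles were at modest counts. Rpl5 and Rpl11, which with 5S rRNA can bind Mdm2, had 34 and 33 counts, and both were at 0 in cell 1. Rps27a, made as a fusion to ubiquitin, had 38 counts, and Rps6, whose phosphorylation is used as a sign of neuronal activity, had 25 counts with an index of 0.677. The 6 members typed as pseudogenes held 202 counts in all, led by Rps3a2 with 60.

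Copies held more counts than the members. Over the 6 cells the 599 copies had 13403 counts and the 83 coding members 3498, and 592 copies had at least 1 count. In 64 members the copies had more counts than the member itself. The share of a member's own counts fell with the number of its copies, with Spearman's rho of -0.86 over 81 members (across genes, which are not independent). Each copy with counts adds to the sum that the share is taken of, so such a fall is largely built into the measure. Rpl21, shown above with its matching copies, had 57 counts of its own and held 3.56% of the sum with its 58 copies.

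The share of these summed counts that fell on the coding member differed between cells. It was 28.5%, 26.4%, 18.6%, 19.1%, 29.1% and 17.5% in cells 1 to 6. Cells 1, 2 and 5 (lowest interval bound 24.6%) lay above cells 3, 4 and 6 (highest bound 20.2%). The 682 rows of coding members and copies held counts in 301, 494, 664, 633, 376 and 436 cases, so the shallow cell 6, with 913 such counts, had more rows with a count than cell 5 with 1043. Processed pseudogenes of other genes took 11.2%, 8.94%, 10.9%, 11.0%, 7.86% and 15.6% of all counts, lowest in cells 5 and 2 and highest in cell 6. Whether a read with several alignments, or a molecule with reads on several copies, was counted more than once is not given in the sources used here. If so, the sums below count some molecules repeatedly and their intervals are too narrow.

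**Figure D4:**
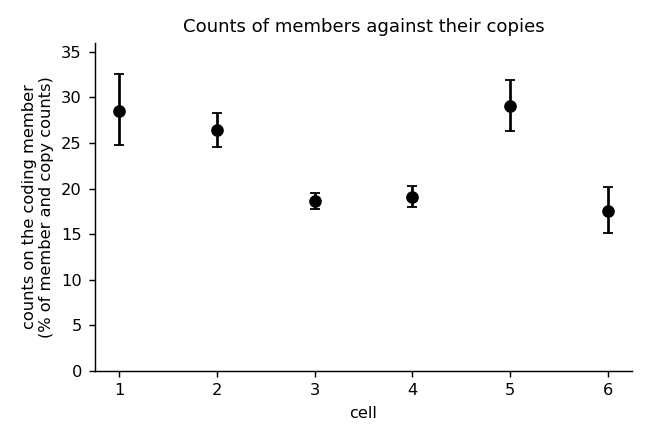
Counts on the coding members as a percent of the counts of members and copies together, in each of cells 1 to 6; points are single cells and bars exact 95% binomial intervals. Cells 1, 2 and 5 lie between 26.4% and 29.1% and cells 3, 4 and 6 between 17.5% and 19.1%.

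Adding the copies changed the order of the cells. Members with copies took 6.27%, 6.55%, 5.90%, 8.06%, 4.63% and 7.79% of the counts of cells 1 to 6, so that cell 4 was highest and cell 5 lowest. When only the single highest row of each member and its copies was taken, so that each member enters by 1 row only, the shares were 2.21%, 2.16%, 1.22%, 1.78%, 1.78% and 1.77%. Cell 3 was then lowest again, with an interval of 1.16 to 1.29 where the other cells had a lowest bound of 1.53 (cell 6). These intervals do not allow for picking the highest row. Picking it tends to raise shallow cells more, since 1 count weighs more there. From the coding members alone to highest rows the share went from 1.79% to 2.21% in cell 1 and from 1.10% to 1.22% in cell 3. The highest rows are thus no separate check on the low place of cell 3. That place held for members alone as shares of the totals, and was lost in the sums over all 599 copies and with TMM scaling. It was also lost with genes named as -ps pseudogenes added, at 2.92% in cell 3 and 2.69% in cell 5. With only copies that share 50% of windows, cells 3 and 5 were the lowest, at 3.88% and 3.89%. The small subunit share of the sums was 39.8%, 39.2%, 36.5%, 38.8%, 36.4% and 27.4%, with cell 6 (24.5 to 30.4) below the other cells and the intervals of cells 3 and 4 overlapping. By highest rows the small subunit share was 39.5%, 39.4%, 36.4%, 42.8%, 38.9% and 37.7%, so cell 6 was not the lowest there and cell 3 was.

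With copies added, none of the 6 members with the highest index stayed among the top 6, which became Rpl23a, Rpl27, Rpl7a, Rpl15, Rps2 and Rpl21. The median index was 5.86 over the 71 members whose sum reached 200 CPM, and 2.18 when the highest row was used. For sums between 200 and 500 CPM it was 3.28 for 19 members, against 3.32 for 511 genes of that level. Between 500 and 1000 CPM it was 6.63 for 30 members and 6.62 for 94 genes. Between 1000 and 5000 CPM it was 10.6 for 21 members and 14.0 for 71 genes. The choice of row therefore decides which members appear to differ most. Rps9, which holds 53.9% of the counts summed with its single copy, kept an index of 13.9 and a ratio of 6.22 between cells 6 and 3 (3.63 to 10.4).

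Cell 6 held the most marked sums. Rpl27 and its 8 copies had 5, 13, 46, 28, 9 and 38 counts, which is 3241 CPM in cell 6 and at most 581 CPM in the others. In cell 6 each of the 9 rows had a count, from 2 to 6, and Rpl27 itself had 6. The highest row alone stood at 116, 145, 73.4, 65.7, 88.8 and 512 CPM. In CPM, cell 6 was thus highest for the sum, for Rpl27 itself and for the highest row. In the deeper cell 3 Rpl27 itself also had 6 counts. Rpl15 and its 16 copies had 17, 45, 157, 120, 22 and 68 counts, or 5800 CPM in cell 6 and at most 1974 CPM elsewhere. All 17 rows had a count in cell 6, from 2 to 7. The highest row of Rpl15 was 597 CPM in cell 6 and 348 CPM in cell 1, a smaller gap than that of the sums. Rpl23a, a large subunit protein beside the exit tunnel, summed with its 19 copies to 10, 60, 123, 160, 10 and 61 counts. Its highest row was 426 CPM in cell 6 and between 106 and 232 CPM in the others.

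Other members were at 0 in cell 6 on every row. In all 23 of the 83 coding members had no count there on the member or on any copy, against 11 in the shallower cell 1. This was not particular to the members, since over all genes cell 6 also had the fewest detected, 2855 against 3058 in cell 1. Of 27 initiation factor genes, 3 had counts in cell 6 and 12 in cell 1. Of 78 mitochondrial ribosomal protein genes, 7 and 11 had counts in these cells. For Rpl17 and its 25 copies, at the rate of the pooled other cells, 21.9 counts were due in cell 6 over the 26 rows but only 1.41 on Rpl17 itself. For Rpsa, also known as a laminin receptor, 24.95 were due over 15 rows and 2.92 on Rpsa itself, and for Rps23, in the decoding centre, 12.7 and 1.55. Rpl17, Rpsa and Rps23 were picked after their zeros in cell 6 were seen, so the gap to the counts due is no test. On the members' own rows fewer than 3 counts were due, and whether each row counted separate molecules was not tested. Rps2 with its 41 copies went another way, with 2, 31, 298, 53, 4 and 4 counts, and stood at 2432 CPM in cell 3 and at most 899 CPM elsewhere. Its highest row was 204 CPM in cell 3, within the range of the other cells (88.8 to 213 CPM).

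**Figure D5:**
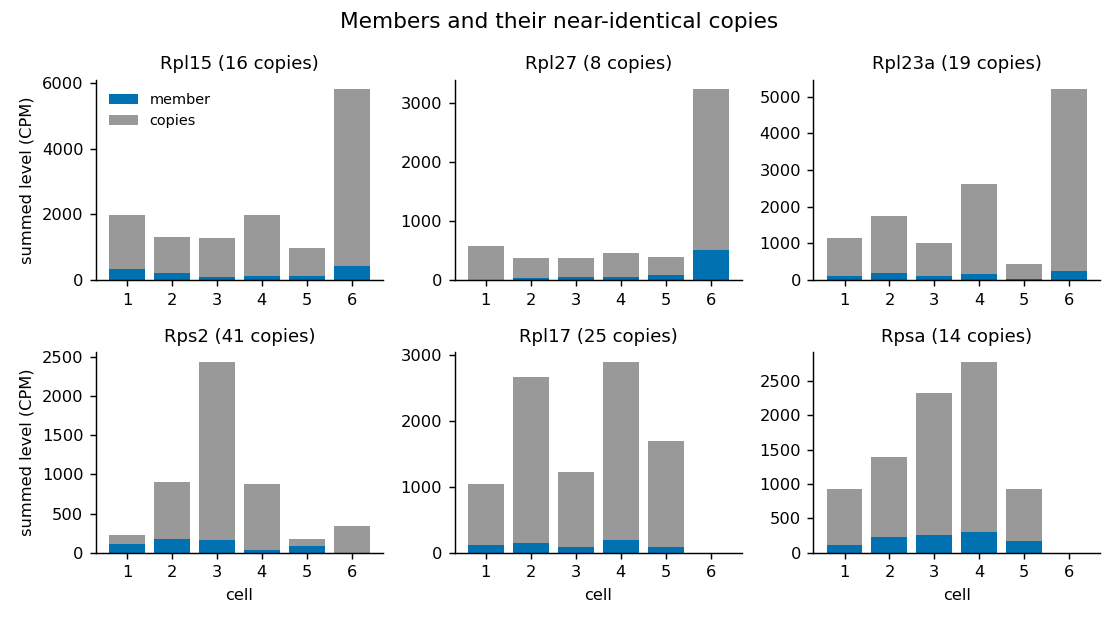
Summed level (CPM) of 6 members and their copies in each of cells 1 to 6, stacked with the member's own row in blue and its copies in grey, each panel with its own axis from 0; the 6 were chosen after the values were seen. Rpl15, Rpl27 and Rpl23a are highest in cell 6, Rps2 in cell 3, and Rpl17 and Rpsa are at 0 in cell 6.

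Other genes of protein synthesis were summed by list. The ribosome-associated list of 8 genes stood at 2438, 2581, 1012, 1445, 2087 and 2388 CPM in cells 1 to 6, lowest in cell 3 as the members were. Its leading genes were Tpt1, the translationally controlled tumour protein, at 1509, 1015, 506, 739, 710 and 1535 CPM, and Fau, the ubiquitin-like fusion that yields a small subunit protein, at 464, 522, 188, 230, 355 and 512 CPM. Both were lowest in cell 3. Elongation factors, 8 genes, summed to 1509, 2001, 2122, 2200, 1776 and 3582 CPM, and their order was not that of the members. Eef2, the translocation factor, had 137 counts in cell 3 and 0 in cell 6, while Eef1a2, the neuronal form of the factor that delivers tRNA, had 29 counts in cell 6 (2473 CPM) and at most 464 CPM elsewhere.

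Initiation factors, with counts for all 27 genes of the list, summed to 3251 CPM in cell 1, the lowest, and 6215 CPM in cell 5, the highest, led by Eif1 and Eif4g2. Ribosome biogenesis genes, 21 of 26 with a count, summed to 266 to 1044 CPM, with Ncl and Ubtf leading. Genes that set the translation of ribosomal protein mRNAs, such as Larp1 and Rheb, had counts for 11 of 12 and summed to 0 CPM in cell 6 and 596 CPM in cell 3. Mitochondrial ribosomal proteins, 70 of 78 with a count, summed to 1393, 2291, 2652, 2135, 2220 and 2729 CPM. They were highest in cell 6, on 32 counts from 7 genes with 8 of the counts on Mrps26, and lowest in cell 1, on 12 counts. Cell 3, where the cytosolic members took their smallest share, was close to cell 6, on 325 counts. No list was tested between cells.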

How the data were processed

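Each of the 6 neurons was sequenced as 1 library by CEL-Seq2, which primes at the poly(A) tail, tags molecules with unique identifiers and amplifies by in vitro transcription, per the labels' protocols. Only read 2 was aligned, per the labels. Tools named by the submitters' processing notes are HTSeq, CASAVA and Bowtie2 2.3.4, with the build mm10 and no roles. For the annotation, the strand setting, multiple alignments and the collapsing of identifiers, the choice was not given in the sources used here. Raw counts were what the authors deposited, for 55341 genes, all found in GENCODE M21, which gave positions and gene types. Counts were divided by cell totals to give CPM. No cell was removed and no doublet caller was run, since each library is 1 cell.

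Binomial and Poisson intervals are exact, at 95%. A cell at 0 was given a floor of 3 counts in ratios. Calls used 2-fold, a pseudocount of 10 CPM and a mean of at least 200 CPM. Named members were, in each subunit, the 4 highest by median CPM, the 6 with the highest and 2 with the lowest dispersion index, the extreme members of each cell, those under 10 counts, paralogs, and stalk, 5S and ubiquitin-fusion genes with Rps6. In each other list the 2 highest genes were named. Some members that this rule names are not reported here. Alternatives included edgeR 4.0.16 TMM scaling, other denominators, filters and folds, each cell left out, and copies. The copies, the highest row and the Rpl22 pair were added after seeing the data. The members and lists were chosen with earlier results of these data known. Python 3.11.15, pandas 2.3.3, numpy 2.4.6 and scipy 1.17.1 were used, and the statistics were tested on simulated data.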

Additional observations from a re-analysis of the deposited data

Results flagged for a closer look

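Of 58 values screened for a single cell far from the other 5, 8 stood out by Dixon's 95% critical value, which chance alone exceeds in about 1 of 20 groups. The members with copies among them were picked after their values were seen. Cell 6 was low in the small subunit share of members with copies, 27.4% against 36.4% in the next cell, but by highest rows it was 37.7%, above the 36.4% of cell 3. It was high in Rpl27 with copies (3241 CPM, next 581), in Rpl15 with copies (5800 CPM, next 1974), in Rpl28 with copies (2814.5 CPM, next 1182) and in the elongation factor list (3582 CPM, next 2200). Cell 3 was high in Rps2 with copies, at 2432 CPM against 899 in the next cell. Cell 1 was high in Rpl32 (581 CPM, next 263) and in Rpl7 (581 CPM, next 269), each on 5 counts.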

How the results depend on the processing

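Each figure list runs over cells 1 to 6. The members' share of counts was 2.78, 2.61, 1.51, 2.17, 1.78 and 2.20% of nuclear protein-coding counts, with cell 3 still lowest. It was 2.14, 2.08 and 1.24% in cells 1 to 3 without mitochondrial genes. With genes named as -ps pseudogenes it was 3.54, 3.67, 2.92, 4.14, 2.69 and 3.52%. With copies it was 6.27, 6.55, 5.90, 8.06, 4.63 and 7.79%, with copies at 50% of windows 4.96, 5.38, 3.88, 5.60, 3.89 and 5.10%, and with highest rows 2.21, 2.16, 1.22, 1.78, 1.78 and 1.77%. Without the 6 pseudogene members it was 1.10% in cell 3 and 1.54% in cell 4. The small subunit share was 41.9% in cell 3, 40.2% in cell 5 and 34.2% in cell 6 without the 3 most abundant members of each subunit, 38.8% in cell 4 with copies, and 31.7% with -ps pseudogenes and 27.4% with copies in cell 6. Members found in all cells fell from 49 to 11 at 3 counts and 16.1 after thinning. The median dispersion index was 5.86 with copies and ran from 1.38 to 2.07 with each cell left out, against 1.80. The 14 higher and 22 lower calls became 2 and 2 at a mean of 500 CPM, 53 and 109 with no filter, 27 and 39 at 1.5-fold, 45 and 85 with copies, and 13 and 33 with TMM scaling. Shares of all genes called are given above, cell by cell, for the main setting and TMM scaling alone, so these counts do not single out the members. The cause of these changes was not tested beyond what each setting removes or adds. The median ratio of named members, 3.93, ran from 3.12 to 3.93 with each cell left out. Of 198 values of single named members' ratios under other settings, 35 moved by over 1.5 times, in 19 of 22 members, such as Rpl35 (9.49 to 2.18 without cell 3), Rpl9 (13.1 to 3.21 without cell 5) and Rpl28 (3.67 to 12.1 with copies). No paired analysis was possible because the 6 cells form a single group. Depth limits cells 1 and 6 most, where 1 count is 116 and 85.3 CPM.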
